A study of Arabidopsis thaliana with 4 samples.

Results

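The plastid-encoded genes of Arabidopsis thaliana roots were the 88 identifiers starting with ATCG among the 27655 genes of the deposited table. Wild-type Col-0 seedlings were grown for 8 days in Murashige and Skoog medium with 625 µM phosphate (plus_Pi, 2 libraries) or 5 µM phosphate (low_Pi, 2 libraries), and roots were collected, in a study of what cis-zeatin, a cytokinin, does when roots lack phosphate. Dark growth is named in the title of the deposited table and not in the sample labels. No deletion, transgene or further treatment is named for either group.

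Plastids keep a small circular genome, present in many copies per cell, that encodes subunits of the photosynthetic complexes, of the NAD(P)H dehydrogenase complex and of the plastid ribosome, and the core subunits of a bacterial-type RNA polymerase. That polymerase needs sigma factors and associated proteins encoded in the nucleus, and some plastid genes are also read by a phage-type polymerase encoded in the nucleus. Roots hold mostly non-green plastids, which store starch and carry out biosynthesis. In plastids a poly(A) tail marks RNA for decay, unlike in the nucleus and cytosol. Polyadenylated RNA was selected for these libraries, so the values reflect the plastid RNA that such selection retains and are no measure of its total amount.

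Column totals ran from 38831704 to 44635953. Taken as read counts, the columns of a group were closer to each other than independent counts would be. The mean chi-square per gene was 0.286 for low_Pi and 0.430 for plus_Pi over all genes, where independent counts give about 1. Over the plastid-encoded genes alone it was 0.699 and 0.829. Between the first columns of the 2 groups it was 215 over all genes and 9.65 over the plastid-encoded genes. A common ratio was fitted within each gene set. The 9.65 therefore leaves out the difference that plastid-encoded genes share, and its size cannot be set against the 215. The chi-square changes with any scaling of the values, and their scaling is unknown, so it cannot show whether the columns are independent. As a precaution, the 2 columns of a group were counted as 1 sample. The differences below are thus not checked by replication and carry neither a p-value nor an SD. Nothing in the labels says that libraries of a group came from separate cultures. Root markers were present in every column, and each of the 7 on the list had a mean of at least 1292. SHR, a root patterning regulator, had 1157 and 1081 in low_Pi and 1389 and 1541 in plus_Pi, and CASP1, which builds the Casparian strip, had 12217 and 11344 in low_Pi and 7548 and 8385 in plus_Pi. Together the 7 took 0.172% and 0.174% of the low_Pi columns and 0.0849% and 0.0858% of the plus_Pi columns, a ratio of 2.03, opposite in direction to the plastid share below. The list was split: 4 had both low_Pi columns above both plus_Pi columns and 3 had both below, beside 20.0% and 49.1% of all rows. Lower were SHR, SCR and EIR1, with log2 differences (low_Pi minus plus_Pi) of -0.38, -0.45 and -0.80. EXPA7 and SHV2, both genes of root hair growth, and the phosphate transporter gene PHT1;1 were at least 2-fold higher in low_Pi, with log2 differences of 1.67, 1.63 and 1.37. PHT1;1 gave the largest part of the sum of the 7, with 44206 and 41360 in low_Pi and 15642 and 17439 in plus_Pi. The part of root markers in the plastid difference was not tested.

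Descriptions of 6 of the 88 identifiers are used here, from the notes of the TAIR10.1 RefSeq annotation. ATCG00660 is noted as ribosomal protein L20 and ATCG01310 as ribosomal protein L2. ATCG00670 is noted as the plastid-encoded ClpP, the proteolytic subunit of the Clp protease, ATCG00530 as a CemA-like proton extrusion protein and ATCG00430 as photosystem II reaction center protein G. The name of ATCG00430 is that of the notes alone and was not checked by sequence, so no role in photosystem II is read from it. ATCG00420 is noted as the parent of the nuclear pseudogene AT4G13285, whose sequence matched the plastid genome once, inside ndhJ, with 88.2% identity over 169 bases. The gene ndhJ encodes a subunit of the NAD(P)H dehydrogenase complex. Other identifiers are given by number, without a role.

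Plastid-encoded genes took a smaller share of the low_Pi columns. Together they made up 0.0871% and 0.0863% of the totals of the low_Pi columns, against 0.157% and 0.156% of the totals of the plus_Pi columns. The share in low_Pi was 0.554 times that in plus_Pi, and the 4 pairings of a low_Pi with a plus_Pi column gave 0.549 to 0.558. Both low_Pi columns thus lay well below both plus_Pi columns, and the columns of a group lay close together. In deposited values the sums were 36637 and 33495 in low_Pi and 63723 and 69643 in plus_Pi. Relative to a median-of-ratios scale of nuclear genes, the ratio was 0.637. In bulk roots, fewer cells of a type and less RNA per cell cannot be told apart.

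**Figure D1:**
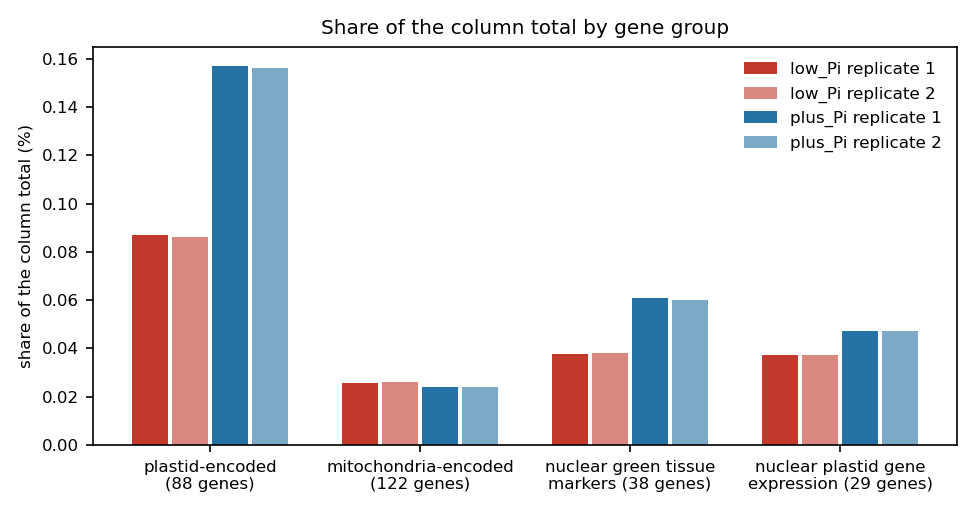
Share of each column's total, in percent, taken by plastid-encoded genes, mitochondria-encoded genes, nuclear green tissue markers and nuclear genes of plastid gene expression, with 1 bar per column. Plastid-encoded genes stood at 0.0871% and 0.0863% in low_Pi and at 0.157% and 0.156% in plus_Pi, while the mitochondria-encoded bars were of like height in all 4 columns.

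Of the 88 identifiers, 65 had both low_Pi columns below both plus_Pi columns, 8 had both above, and 15 overlapped or were tied. Over all 27655 rows of the table, 49.1% lay below and 20.0% lay above in this sense. Of those rows 4848 were listed at 0 in every column and could lie neither below nor above, against 2 of the 88, which lowers both table-wide shares. For log2 differences (low_Pi minus plus_Pi), 41.5 was added to each value, which is 0.0001% of the mean column total. Low-valued genes appear less different on this scale than they are in ratio. A mean of 41.5 or more over the 4 columns was required, which kept 43 of the 88 plastid identifiers and 18729 genes in all. Of these 43, 12 were at least 2-fold lower in low_Pi and 0 at least 2-fold higher, while 4.47% and 4.58% of all genes that entered were. Their median log2 difference was -0.73, beside -0.26 over all genes that entered, and 37 of the 43 lay below that all-gene median. Because a gene can enter through a high plus_Pi value alone, these counts describe the genes that entered and not all 88, whose median was -0.40 beside -0.08 over the whole table. The rows listed at 0 in every column have a difference of 0, which draws the whole-table median toward 0.

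The 2-fold count hung on small margins. Just past the threshold lay ATCG01130 at -1.01 and ATCG00820 at -1.03, and just short of it lay ATCG00810 and ATCG01010, both at -0.99, and ATCG00780 at -0.97. With a common column total 8 genes were 2-fold lower, and with median-of-ratios scaling 5 were. These 5 were ATCG00730, ATCG00740, ATCG00760, ATCG01050 and ATCG01110. The share of all genes 2-fold lower was not counted under either scaling, so the 4.47% of the deposited values is no background for these counts. At 1.5-fold, a size chosen after seeing the data, 29 of the 43 were lower, against 20.7% of all genes that entered.

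**Figure D2:**
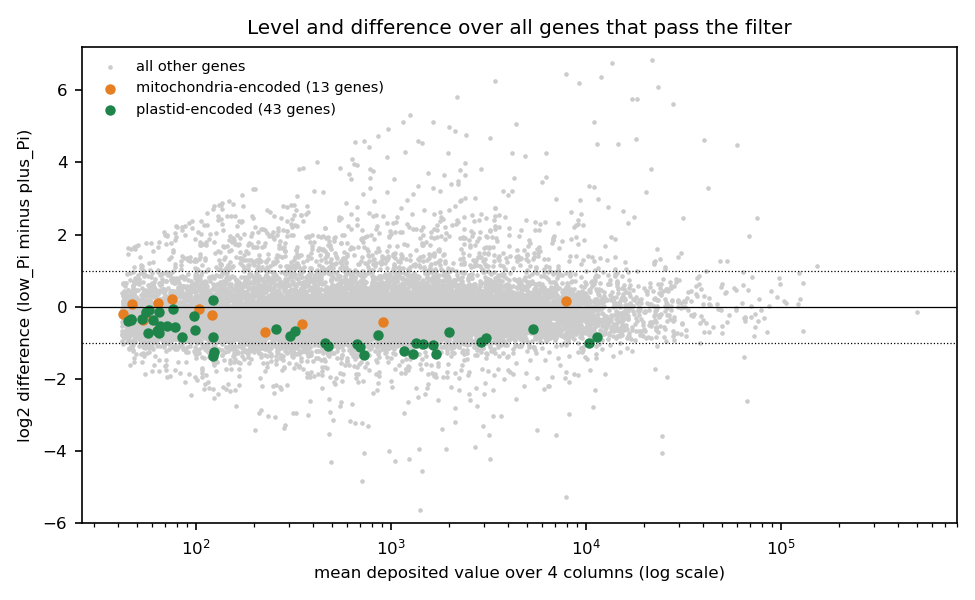
Log2 difference (low_Pi minus plus_Pi) against the mean deposited value over the 4 columns for all 18729 genes that entered, with plastid-encoded genes in green and mitochondria-encoded genes in orange. Dotted lines mark 2-fold differences. The plastid-encoded points lie between -1.36 and 0.19, mostly below 0 and over the whole range of levels. Of all 18729 genes, 13374 lie below 0.

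A few identifiers held most of the plastid sum. The 15 with the highest mean took 90.5% and 90.3% of it in the low_Pi columns and 90.3% and 90.6% in the plus_Pi columns. These shares are not corrected for gene length, since gene lengths were not used here. ATCG00790 had low_Pi values of 8641 and 7826 and plus_Pi values of 13856 and 15360, a ratio of 0.564 and a log2 difference of -0.82. ATCG01130 had 7186 and 6511 against 13157 and 14562, a ratio of 0.494. Together these 2 identifiers took 43.2% and 42.8% of the plastid sum in low_Pi and 42.4% and 43.0% in plus_Pi. Their joint part was thus alike in the 2 groups, although the 2 differed in opposite directions. ATCG00790 took 23.6% and 23.4% of the plastid sum in low_Pi and 21.7% and 22.1% in plus_Pi. ATCG01130 took 19.6% and 19.4% in low_Pi and 20.6% and 20.9% in plus_Pi. Without the pair, the sum of the remaining 86 identifiers had a ratio of 0.523, against 0.530 for the pair.

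All 18 identifiers with a mean of at least 415, which is 0.001% of the mean column total, had both low_Pi columns below both plus_Pi columns, as had 62.5% of all genes that entered. Their ratios ran from 0.377 to 0.657. The 25 with a mean between 41.5 and 415 were more mixed: 22 lay below, 1 lay above (against 21.9% of all genes that entered) and 2 overlapped or were tied, with ratios from 0.260 to 1.19. The 2 classes had sums with ratios of 0.523 and 0.570, so the summed difference was of like size in both.

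**Figure D3:**
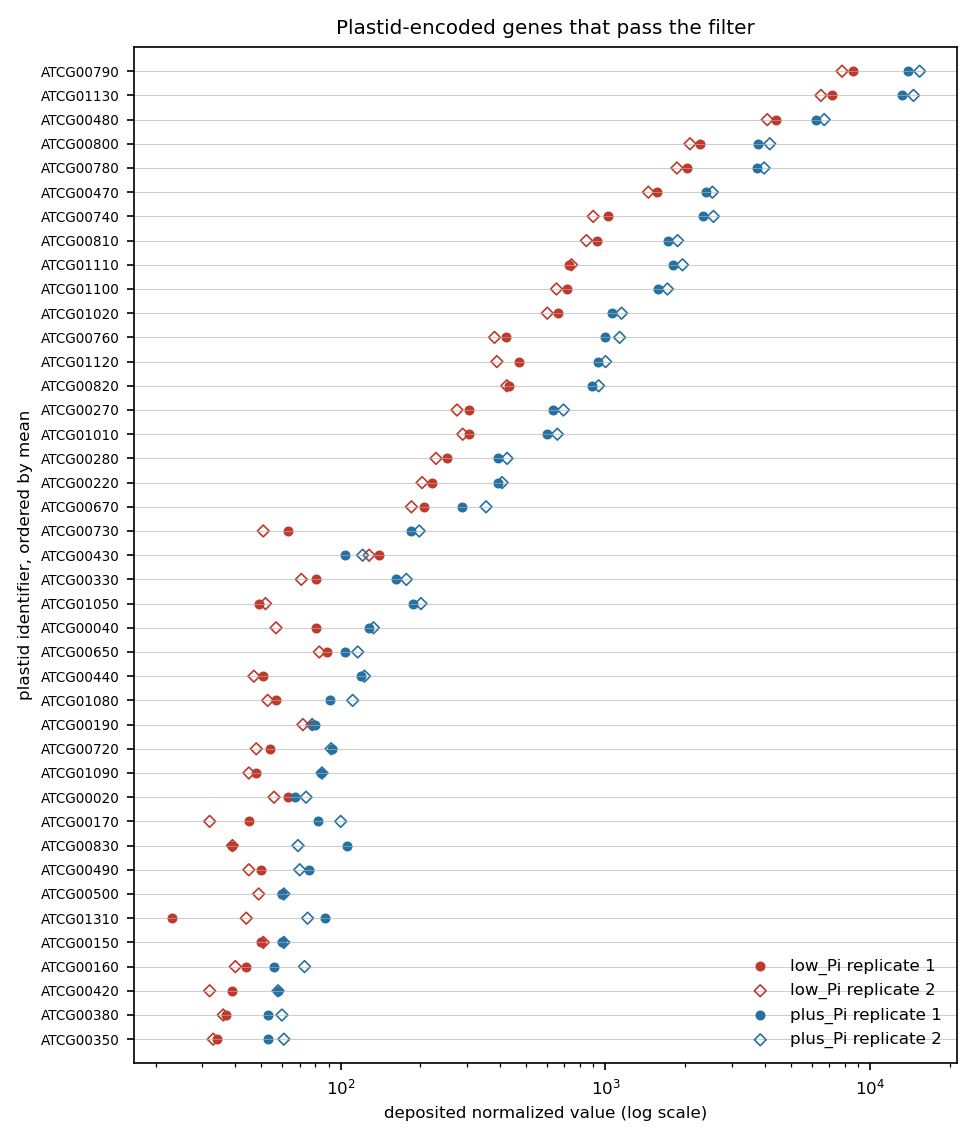
Deposited values, on a log axis, of 41 of the 43 plastid identifiers that entered, ordered by mean, with 1 symbol per column. In 38 rows both low_Pi symbols lie left of both plus_Pi symbols, and in the row of ATCG00430 both lie to the right.

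The run of 9 identifiers from ATCG00740 to ATCG00820 held close to the same part of the plastid sum in every column: 48.7% and 48.5% in low_Pi and 49.1% and 49.5% in plus_Pi. Gene identifiers of Arabidopsis are numbered along the chromosome, and the bounds of the run were drawn after its values were seen. All 9 identifiers of the run had both low_Pi columns below both plus_Pi columns, as had 62.5% of all genes that entered. Their ratios ran from 0.377 to 0.564.

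Within that run the differences were uneven. The lowest ratio was that of ATCG00760, with 420 and 381 in low_Pi and 996 and 1131 in plus_Pi (ratio 0.377, log2 -1.32). ATCG00740 had 1020 and 899 against 2326 and 2557, a log2 difference of -1.31. Both were lower than the middle of the run, where ATCG00780 had 2038 and 1861 against 3719 and 3973 (log2 -0.97). At the other end lay ATCG00790 with its log2 difference of -0.82 and ATCG00800, with 2269 and 2085 against 3779 and 4172 (log2 -0.86). ATCG00810 (926 and 847 against 1728 and 1872) and ATCG00820 (431 and 424 against 892 and 942) lay near a 2-fold difference. Next to the run by number, ATCG00730 had 63 and 51 against 185 and 198 (ratio 0.298).

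A further run, the 4 identifiers ATCG01100 to ATCG01130, took a smaller part of the plastid sum in low_Pi, 24.9% and 24.8%, than in plus_Pi, 27.4% and 27.6%. Its sum had a ratio of 0.474. ATCG01110 had 731 and 744 in low_Pi and 1794 and 1953 in plus_Pi (log2 -1.30), and ATCG01100 had 715 and 653 against 1581 and 1714 (log2 -1.22). With 473 and 389 against 940 and 1001, ATCG01120 stood at -1.10. All 4 were at least 2-fold lower, beside 4.47% of all genes that entered, but with median-of-ratios scaling this held for ATCG01110 alone. The bounds of this run were drawn after its values were seen.

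ATCG00470 and ATCG00480 differed the other way in composition, as did ATCG00790. Together ATCG00470 and ATCG00480 took 16.3% and 16.5% of the plastid sum in low_Pi and 13.5% and 13.3% in plus_Pi, while both were lower in value. ATCG00480 had 4406 and 4084 in low_Pi and 6214 and 6702 in plus_Pi (ratio 0.657, log2 -0.60), and ATCG00470 had 1569 and 1452 against 2390 and 2535 (ratio 0.613). These were the highest ratios among the 15 identifiers with the highest mean. ATCG01020, which had 659 and 603 against 1056 and 1150, came next at 0.572.

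Among other identifiers at least 2-fold lower, ATCG01050 had low_Pi values of 49 and 52 and plus_Pi values of 188 and 201. Its ratio of 0.260 was the lowest of the 43, and its log2 difference was -1.36. ATCG00270 had 304 and 275 against 631 and 694, a log2 difference of -1.09. In both, the low_Pi columns lay far from the plus_Pi columns. With 208 added in place of 41.5, ATCG01050 was at -0.64, ATCG00730 at -0.59 and ATCG00270 at -0.81, all short of 2-fold.

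**Figure D4:**
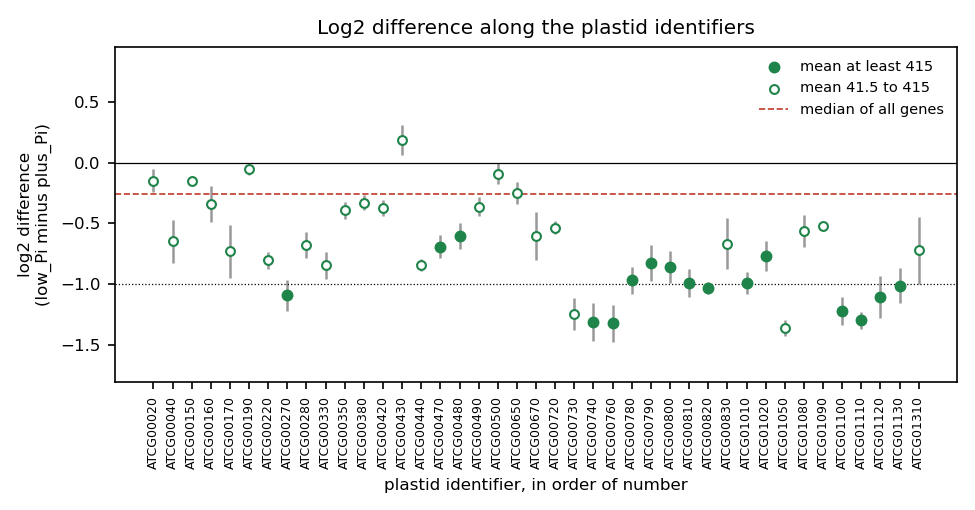
Log2 difference (low_Pi minus plus_Pi) of 41 of the 43 plastid identifiers that entered, in order of their number. Filled points have a mean of at least 415 and open points a lower mean, grey lines span the 4 pairings of columns, the dashed line is the median of all genes at -0.26 and the dotted line a 2-fold difference. The runs ATCG00740 to ATCG00820 and ATCG01100 to ATCG01130 lie between -1.32 and -0.82, while ATCG00430 lies above 0.

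The identifier with the highest difference was ATCG00430, whose noted name was not checked. It had 139 and 128 in low_Pi and 104 and 121 in plus_Pi, a ratio of 1.19 and a log2 difference of 0.19. It was the 1 identifier of the 43 above 0, where 13374 of all 18729 genes that entered lay below 0. The columns of ATCG00430 did not overlap, but the gap between the groups, from 121 to 128, was smaller than the gap within plus_Pi. The next 4 lay close to 0 and below the 2-fold threshold by a wide margin. ATCG00190 had 78 and 72 against 80 and 78 (log2 -0.05), ATCG00500 had 60 and 49 against 60 and 61 (log2 -0.09), and ATCG00150 had 50 and 51 against 60 and 61 (log2 -0.15). ATCG00020 had 63 and 56 against 67 and 74, a log2 difference of -0.15. With median-of-ratios scaling, trimmed-mean scaling or quantile normalization these 4 lay above 0, and the split of the 43 was 38 below and 5 above in each. The median of all genes was then 0.00, -0.01 and -0.08, and the split of all genes about 0 was not counted under these settings.

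The other described identifiers covered the range. ATCG00670, the plastid-encoded ClpP, had 206 and 185 in low_Pi and 286 and 354 in plus_Pi (ratio 0.611, log2 -0.60). ATCG00420, matched to ndhJ, had 39 and 32 against 58 and 58 (ratio 0.612). Both lay lower in both low_Pi columns. ATCG01310, ribosomal protein L2 of the large subunit, had 23 and 44 against 87 and 75 (ratio 0.414), and its low_Pi columns differed more from each other than those of any other of the 43. The RefSeq plastid annotation holds 2 copies of rpl2, and 7 of its protein-coding symbols occur more than once, so reads of such copies could be split or dropped and the value of ATCG01310 is uncertain. ATCG00660, ribosomal protein L20, had 16 and 14 against 22 and 34, and ATCG00530, the CemA-like protein, had 17 and 13 against 16 and 18. Neither of these reached a mean of 41.5, and the columns of ATCG00530 overlapped between the groups.

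In all, 45 identifiers had a mean under 41.5. They summed to 501 and 467 in low_Pi and 871 and 852 in plus_Pi, a ratio of 0.562, close to that of the plastid sum. Of these, 25 had both low_Pi columns below both plus_Pi columns, 7 had both above, and 13 overlapped or were tied. Of all rows, 49.1% lay below and 20.0% above in this sense, and of all genes that entered, 62.5% and 21.9%. The shares among all rows with a mean under 41.5 were not counted. The 25 and 7 thus have no background of like level, and no excess in either direction is read from them. ATCG00870 and ATCG01270 were listed at 0 in every column, and 7 identifiers, these 2 included, were listed at 0 in both low_Pi columns. Chosen after their values were seen, ATCG00640 had 4 and 4 in low_Pi and 39 and 36 in plus_Pi, ATCG00050 had 2 and 2 against 17 and 20, and ATCG01060 had 15 and 13 against 65 and 64. These were among the larger gaps downward at low values. In the other direction, ATCG00065 had 30 and 19 against 11 and 13, and ATCG00550 had 34 and 40 against 24 and 27. At such values 1 column can move a ratio widely.

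The mitochondria-encoded genes, the other rows of the table from an organelle genome, took 0.0258% and 0.0260% of the low_Pi columns and 0.0242% and 0.0240% of the plus_Pi columns, a ratio of 1.08 where the plastid ratio was 0.554. This share rested on ATMG00030, with 8743 and 8091 in low_Pi and 7144 and 7786 in plus_Pi, and without it the ratio was 0.782. Of 122 mitochondria-encoded identifiers, 13 entered, with a median log2 difference of -0.19 beside -0.26 over all genes that entered. Of the 13, 0 were at least 2-fold lower and 0 higher, beside 4.47% and 4.58% of all genes that entered. With so few genes, a count of 0 is near those shares. The difference between the 2 organelles could not be tested with 1 sample per group.

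Nuclear genes for plastid gene expression were mostly lower as well. Of 29 genes, 27 entered, of which 2 were at least 2-fold lower and 0 higher (4.47% and 4.58% of all genes that entered). Their median log2 difference was -0.61, and -0.35 with median-of-ratios scaling, where the median of all genes was at 0. All 12 genes for proteins associated with the plastid-encoded RNA polymerase had both low_Pi columns below both plus_Pi columns, as had 62.5% of all genes that entered, with a median of -0.69 and 1 gene 2-fold lower. That gene, PDE312, also named PTAC10, had 214 and 186 in low_Pi and 549 and 591 in plus_Pi (log2 -1.34). PTAC2 was at -0.98 and PTAC6 at -0.96, both parts of the transcriptionally active plastid chromosome. With median-of-ratios scaling 1 of these 12 lay above 0.

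Sigma factors, which direct the plastid-encoded polymerase to promoters, were uneven. SIGF, also named SIG6, had 131 and 123 in low_Pi and 279 and 298 in plus_Pi (log2 -0.97), SIG2 was at -0.60 and SIGE at -0.40, and the median of the 5 that entered was -0.40. SIG4 had 10 and 11 against 7 and 7 and did not enter. SCA3, a phage-type RNA polymerase of plastids, had 425 and 416 against 658 and 713 (log2 -0.65). The other gene listed as a nuclear plastid RNA polymerase, AT5G15700, had 523 and 491 against 733 and 795 (log2 -0.55). Each of these genes but SIG4 was lower in both low_Pi columns, as were 62.5% of all genes that entered.

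Genes for plastid RNA processing and decay had a median of -0.71 over 6 genes, beside -0.26 over all genes, and all 6 were lower in both low_Pi columns, as were 62.5% of all genes that entered. RNEE/G, an RNase E-type endonuclease, had 84 and 72 in low_Pi and 203 and 233 in plus_Pi (log2 -1.12), the 1 gene of the 6 that was 2-fold lower. EMB2730, an exoribonuclease also named RNR1, and CRB, a chloroplast RNA-binding protein, were both at -0.73. RIF10, the plastid polynucleotide phosphorylase, an exoribonuclease that can also add tails to plastid RNA, had 578 and 529 against 788 and 850 (log2 -0.53). Of the regulators, GLK2 was at 0.19, and GUN1, which acts in signalling from plastid to nucleus, had 7187 and 6627 against 7087 and 7736 (log2 -0.10). GPRI1, also named GLK1, had 11 and 7 against 21 and 21 and did not enter.

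Green tissue markers, nuclear genes of photosynthesis, were lower beside the plastid-encoded genes. Of 38 markers, 37 entered, 6 were at least 2-fold lower and 0 higher, beside 4.47% and 4.58% of all genes that entered, and the median log2 difference was -0.67, beside -0.26 over all genes. Their summed share was 0.0377% and 0.0380% in low_Pi and 0.0609% and 0.0603% in plus_Pi, a ratio of 0.624. No marker was listed at 0 in every column. ATPC1, a subunit of the plastid ATP synthase, had 267 and 248 in low_Pi and 1149 and 1229 in plus_Pi (log2 -2.04), PSAN of photosystem I was at -1.49 and PSBO2 of photosystem II at -1.26. With median-of-ratios scaling 34 of the 37 still lay below 0, and 3 were 2-fold lower. The median of all genes was then at 0.00, and the share of all genes 2-fold lower was not counted. The part of green tissue in the plastid difference was not tested.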

How the data were processed

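The authors deposited whole numbers for 27655 genes in 4 columns, in a file whose name calls them normalized counts. The normalization is not given in the sources used here, so the deposited values were taken as a score of unknown depth. No count model was fitted to the group differences, and no interval or p-value was computed. The chi-square alone treated the values as counts. Per the submitters' processing notes, CASAVA 1.4, FastQC, HISAT2, HTSeq and edgeR were used, in roles, a genome build and an annotation not given in the sources used here. Per the labels' protocols, RNA was treated with DNase I and selected with oligo(dT) beads. The protocols do not mention strand, so reads of overlapping or antisense genes may not be separated.

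Column names gave the libraries. For the second low_Pi column they gave the group alone, because that name without punctuation also spells a plus_Pi title. Group values are means over columns, and log2 differences were averaged over columns after adding 41.5. The chi-square used genes with a pair mean of at least 5. The code was tested on simulated data. Nuclear gene names are those of RefSeq for TAIR10.1, whose gene table held 27445 identifiers and none of the plastid ones, and descriptions of 6 plastid identifiers come from its annotation notes. One was placed with blastn 2.17.0. The planned lists by plastid role could not be used, since symbols are not paired with identifiers. No sequence is printed, since the build of the files is not stated.

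Named plastid identifiers were the 15 with the highest mean, those at least 2-fold apart, and the 5 nearest 0 and 5 highest among those that entered, of which 2 are not reported here. Nuclear lists name up to 3 genes with the largest differences. Described identifiers, runs and further list genes were added after their values were seen. Members and lists were chosen with earlier results of these data known. Alternatives covered pseudocounts of 4.15 and 208, filters, 4 scalings, other denominators, the omission of each library and a 1.5-fold rule. Computation used Python 3.11.15, numpy 2.4.6 and pandas 2.3.3.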

Additional observations from a re-analysis of the deposited data

How the results depend on the processing

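Medians, ratios and genes that stayed short of 2-fold were called moved where they shifted by more than the range over the 4 pairings of columns. Counts were called moved where they changed by more than 1.5-fold. Genes 2-fold apart were judged by whether they kept that size and sign. The 12 plastid identifiers at least 2-fold lower became 19 and 4 with pseudocounts of 4.15 and 208, 5 under both median-of-ratios and trimmed-mean scaling, 6 under quantile normalization, 8 with a common column total, 29 at 1.5-fold (chosen after seeing the data), and 8 to 15 without 1 library; the number at least 2-fold higher was 0 throughout. The same 12 genes were 2-fold lower without low_Pi replicate 1 and without plus_Pi replicate 1, and 8 of them without low_Pi replicate 2 and without plus_Pi replicate 2. Column totals differ, so leaving out 1 column shifts all genes together: the median of all genes ran from -0.32 to -0.19. The plastid median of -0.73 was -0.46 with a pseudocount of 208, -0.40 without a filter and -0.99 with a filter of 208, and -0.84 to -0.69 without 1 library. The ratio of plastid shares, 0.554, was 0.604 with the upper quartile of nuclear genes as denominator, 0.637 with their median-of-ratios scale, 0.543 without ATCG00790, and 0.551 to 0.556 without 1 library. The median of nuclear genes for plastid gene expression, -0.61, was -0.35 after median-of-ratios scaling, -0.37 after trimmed-mean scaling and -0.38 after quantile normalization. The mitochondria-encoded median of -0.19 was -0.45 with a filter of 208, 0.00 without a filter, and -0.01, -0.02 and -0.05 after median-of-ratios scaling, trimmed-mean scaling and quantile normalization. Of 24 plastid identifiers named by the rule, a change of sign was judged only for the 12 that were 2-fold apart. Over 10 settings 0 of these changed sign, and 40 of their values fell short of 2-fold. Among the others, ATCG00020, ATCG00150, ATCG00190 and ATCG00500 lay above 0 under median-of-ratios scaling, trimmed-mean scaling and quantile normalization. The causes of these shifts were not tested, beyond the fewer or more genes that a filter keeps. The alternatives planned for shares by role were not run, for want of a pairing of symbols with identifiers. No paired analysis was possible because the results come from no test: the 2 columns of a group were counted as 1 sample. Depth is unknown, so what it limits could not be measured.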
